A study of Citrus maxima and Citrus sinensis with 4 samples.

Results

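The loci described here are the single-locus 24 nt small RNAs of *Citrus* leaves that the deposited catalogue lists as miRNAs but for which it gives no match to a known miRNA. They were chosen by 3 features of the catalogue: no homology label, a mature sequence of 24 nt, and a mature sequence that is listed at 1 locus only. This gave 128 of the 699 precursor loci (below called members), after 9 further loci with the same features were left out by their identifiers. Those 9 had been singled out with their read counts known and include strong responders, so the counts of called members are also given with them added back. No replicate was sequenced. Leaf small RNA was sequenced as 4 libraries from B-toxic *C. sinensis* (400 μM boric acid), control *C. sinensis* (10 μM boric acid), B-toxic *C. grandis* (400 μM) and control *C. grandis* (10 μM). *C. sinensis* is described by the study as tolerant to B-toxicity and *C. grandis* as intolerant. The seedlings were treated for 15 weeks, and each library was made from the mixed RNA of 5 replicates, so every test below compared libraries and not conditions. The libraries held 243277, 346600, 325441 and 373890 reads of mature sequences in that order of the groups.

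Plant miRNAs are cut from the stem of a single-stranded, folded precursor and guide silencing of mRNAs with nearly complementary sites, and most of those that are well known have 21 nt. A length of 24 nt is the usual length of heterochromatic siRNAs, which Dicer-like 3 cuts from double-stranded RNA and which guide DNA methylation at repeats. These siRNAs mostly start with A, the 5′ base preferred by the Argonaute proteins that carry them, whereas most miRNAs start with U. Long miRNAs of the same 24 nt length are also known and are cut from hairpins by Dicer-like 3, so that length alone does not tell these classes apart.

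The mature sequences of the 10 members with most reads over the 4 libraries are shown because they held most of the members' reads. Bases 2 to 8 from the 5′ end, the seed, are in capitals in all mature sequences.
scaffold_8_1263994: aUUGGUCGggugcaccaccucagc
scaffold_6_1070318: aUGUACUGuugauggugacguggc
scaffold_2_259330: gAAGAACUuuguugauaaggcgug
scaffold_2_309649: cAUCGAUCcgucuaugugaacagu
scaffold_5_951097: aUUCGGGAcgaguuuacaacguug
scaffold_3_371908: aUUAGUCUgaauucugaauagauc
scaffold_4_722717: gUAUAGAUcaauggugacgagugu
scaffold_2_272434: aGAAGAACuuuguugauaaggcgu
scaffold_5_854927: aACGACUGgugcaacuguggcacg
scaffold_3_348564: aAAUGCGGauuuguuguauacacc

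A further 4 members are shown because their B-toxic to control ratio differed between the species, as did that of 6 of the 10 above.
scaffold_2_209091: aAACUGUGguacugacaugaugug
scaffold_5_970164: aAAGGUUGcuaaugggagauagug
scaffold_3_576569: aAGAUUGGuugaauuaaauaucac
scaffold_1_148272: uUGUGUAGcugccauguauucugc

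The next 8 differed in level between the species, the first 3 being higher in *C. sinensis* and the last 5 higher in *C. grandis*.
scaffold_6_995538: uUUCUGAAgaucguggauauuagg
scaffold_7_1140884: uACGUGGCguuguuaaaccagauc
scaffold_6_1096581: cUUUCUGAccuggagugaacgauu
scaffold_3_511377: uCCAAAGCcaaaugauucugaagc
scaffold_4_622213: aUCCAAUGguuggauccagcugug
scaffold_1_23135: aCGGAUCUugauuuuuauuaugga
scaffold_1_159944: aGGAAUUGggucagagauugguuu
scaffold_42_1548435: gUCCGCCGgacucggaauggcgcg

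The last 3 were the members that passed both limits of the test between B-toxic and control *C. grandis*, a 2-fold ratio and a false discovery rate below 0.01.
scaffold_3_563840: uUUCUUUUuguccaaaaucucagu
scaffold_4_686304: aUGACUGAuauacccugaaagugu
scaffold_3_424754: aAAGGAUUuucuagaagaacgugu

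The members differed widely in abundance. They held 31254 reads, or 2.42% of all mature reads, and the 10 most abundant had 78.9% of these. The single locus scaffold_8_1263994 had 13758 reads, 44.0% of the total of the members. The median member had 26 reads over the 4 libraries, against a median of 38 over all 699 loci, and 29 members had fewer than 10 reads. Reads were present in all 4 libraries for 93 members, in *C. sinensis* only for 9 and in *C. grandis* only for 8. Both species had reads for 111 of the 128 members, beside 579 of all 699 loci. With 3 reads taken as the upper limit that a count of 0 allows, an undetected member could still have had 12.3 reads per 1000000 mature reads (RPM) in B-toxic *C. sinensis*, 8.66 in control *C. sinensis*, 9.22 in B-toxic *C. grandis* and 8.02 in its control.

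Summed over the members, the share of mature reads was 3.22% (95% exact binomial interval 3.15 to 3.29) in B-toxic *C. sinensis* and 2.47% (2.42 to 2.52) in control *C. sinensis*. In *C. grandis* the order was the opposite, with 1.86% (1.82 to 1.91) under B-toxicity and 2.36% (2.31 to 2.40) in the control. These intervals cover counting error only. In bulk leaf RNA, fewer cells of a type and less RNA per cell cannot be told apart for these or any later values. The first locus, scaffold_8_1263994, had 50.5% of the members' reads in B-toxic *C. sinensis*, 58.0% in control *C. sinensis*, 27.5% in B-toxic *C. grandis* and 35.9% in its control. Without it the shares were 1.59% and 1.04% in B-toxic and control *C. sinensis* and 1.35% and 1.51% in B-toxic and control *C. grandis*. In log2 terms the summed ratio was 0.38 in *C. sinensis*, and 0.62 without that locus, and in *C. grandis* it was -0.34, and -0.16 without that locus. Leaving out scaffold_8_1263994 thus changed the size of both ratios and the direction of neither.

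Among members with 10 or more reads, the ranks of the 99 loci were more alike within a species than between species. Spearman's rho of the read counts was 0.92 between B-toxic and control *C. sinensis* and 0.91 between B-toxic and control *C. grandis*, and it ran between 0.60 and 0.75 for the 4 pairs of libraries from different species. These are descriptions across loci, which share their libraries and are not replicates. Over all 511 loci with 10 or more reads the corresponding values were 0.94 and 0.92 within species and 0.69 to 0.73 between them.

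**Figure D1:**
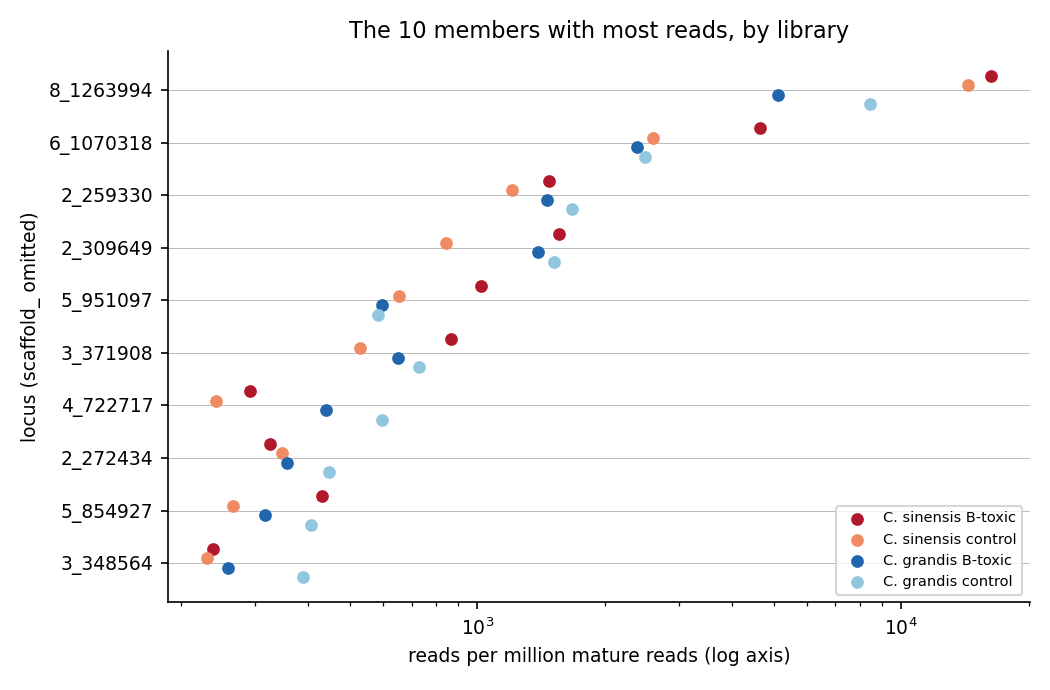
RPM (log axis) of the 10 members with most reads, with 1 point for each of the 4 libraries. scaffold_8_1263994 lay highest in every library, at 16253 and 14342 RPM in B-toxic and control *C. sinensis* and 5128 and 8462 RPM in B-toxic and control *C. grandis*.

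Of the 10 most abundant members 6 were higher in B-toxic than in control *C. sinensis* at a false discovery rate below 0.01, and none of the 6 differed by 2-fold. scaffold_6_1070318 was at 4657 RPM in B-toxic *C. sinensis*, against 2602 RPM in the control, a ratio of 1.79 (95% exact interval 1.64 to 1.96). scaffold_2_309649 was at 1558 RPM under B-toxicity, against 845 RPM in the control, a ratio of 1.84 (1.58 to 2.15). Both stood above the control by far more than counting error. scaffold_3_371908 was at 867 RPM, against 528 RPM in the control, a ratio of 1.64 (1.34 to 2.01). scaffold_5_951097 was at 1024 RPM, against 655 RPM in the control, a ratio of 1.56 (1.30 to 1.88). The least abundant of the 6, scaffold_5_854927, was at 432 RPM under B-toxicity and 265 RPM in the control, a ratio of 1.63 (1.22 to 2.18). For the most abundant member, scaffold_8_1263994, 16253 RPM under B-toxicity compared with 14342 RPM in the control gave a ratio of only 1.13 (1.09 to 1.18).

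Fisher's exact test (two-sided) was run on all loci with a read in the 2 libraries, with Benjamini-Hochberg adjustment over all of them. With limits of 0.01 on the false discovery rate (FDR) and 2-fold on the ratio, 0 of the 120 members tested in *C. sinensis* passed, beside 1.88% of all 640 loci. Without the limit on the ratio 6 members passed, all 6 higher under B-toxicity, beside 8.91% of all loci, of which 29 were higher and 28 lower. The 6 were the loci given above, with FDR values of 1.6e-37 for scaffold_6_1070318, 8.6e-14 for scaffold_2_309649, 8.3e-08 for scaffold_8_1263994, 1.8e-05 for scaffold_3_371908, 2.0e-05 for scaffold_5_951097 and 0.0094 for scaffold_5_854927. With TMM factors, which lower every *C. sinensis* ratio by 0.15 on the log2 scale, 4 passed: scaffold_8_1263994 had an FDR of 0.743 and scaffold_5_854927 one of 0.0653. All 6 had at least 100 reads in the 2 libraries, and the share of members at that depth that passed, 6 of 14 or 42.9%, was close to the 41.7% of all loci of that depth. With the 9 loci left out by identifier added back, 2 loci passed with the ratio limit.

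Most members with enough reads for a ratio were above 1 in *C. sinensis*. Over the 66 members with at least 10 reads in the 2 *C. sinensis* libraries, the median log2 ratio was 0.51 (quartiles 0.24 and 0.91), and 54 of the 66 were above 0. Over all 372 loci of that depth the median was 0.25, and 236 were above 0. The 24 nt loci with a homology label had a median of 0.42 and the unlabelled single-locus 21 nt loci 0.10. The unlabelled 24 nt loci listed more than once had 0.60, but these count the same sequence at several loci. With TMM factors 53 of the 66 members were above 0, and the median was 0.36. Where loci with fewer than 10 reads were left out of the adjustment, 2 members passed both limits: scaffold_1_148272, at 210 RPM under B-toxicity and 104 RPM in the control, and scaffold_3_516511, with 16 reads under B-toxicity and 5 in the control. scaffold_3_516511 was named after its values were seen.

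In *C. grandis* the 3 members that passed both limits were all lower under B-toxicity, and all were of low abundance. scaffold_3_563840 was at 24.6 RPM (8 reads) in B-toxic *C. grandis*, against 88.3 RPM (33 reads) in the control, a ratio of 0.279 (0.111 to 0.615, FDR 0.0032). scaffold_4_686304 was at 46.1 RPM (15 reads), against 126 RPM (47 reads) in the control, a ratio of 0.367 (0.190 to 0.667, FDR 0.0034). scaffold_3_424754 was at 9.22 RPM (3 reads), against 56.2 RPM (21 reads) in the control, a ratio of 0.164 (0.0313 to 0.55, FDR 0.0045). All 3 FDR values are from Fisher's exact test. In *C. sinensis* the same 3 loci were at 24.7, 74.0 and 57.5 RPM under B-toxicity and at 20.2, 63.5 and 40.4 RPM in the control, in the same order, and none passed there. The 3 were among 119 members tested in *C. grandis*, a share of 2.52% beside 7.05% of all 638 loci. With the loci left out by identifier added back, 7 loci passed. Of the 4 left-out loci among them, 1 was higher and 3 were lower under B-toxicity. With edgeR's exact test and an assumed coefficient of variation of 0.2 or 0.4 between replicates, 0 members passed. With DESeq2 size factors 1 of the 3, scaffold_3_563840, still passed. With the total of clean reads as the scale none of the 3 passed, and scaffold_3_410478, with 44 reads under B-toxicity and 26 in the control, passed in the other direction. scaffold_3_410478 was named after its values were seen.

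Without the limit on the ratio 6 members passed in *C. grandis*, 1 higher and 5 lower, beside 17.6% of all loci, of which 58 were higher and 54 lower. The 3 additional ones had more reads. scaffold_8_1263994 was at 5128 RPM under B-toxicity, against 8462 RPM in the control, a ratio of 0.606 (0.571 to 0.643, FDR 7.6e-63 by Fisher's exact test). scaffold_2_209091 was at 200 RPM, against 396 RPM in the control, a ratio of 0.505 (0.371 to 0.680, FDR 2.9e-05 by Fisher's exact test), which was just inside 2-fold. scaffold_3_432598 was the member that rose, at 476 RPM under B-toxicity and 294 RPM in the control, a ratio of 1.62 (1.26 to 2.09, FDR 9.0e-04 by Fisher's exact test). Among members with 100 or more reads in the 2 libraries 3 of 24 (12.5%) passed, against 48.9% of all loci of that depth.

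The ratios of the members in *C. grandis* lay on both sides of 1. Over 83 members with at least 10 reads in the 2 libraries the median log2 ratio was -0.13 (quartiles -0.55 and 0.20), close to the -0.10 of all 431 loci of that depth, and 32 of the 83 were above 0. The sign of this median depended on the scaling: it was 0.02 with DESeq2 size factors, which raise every *C. grandis* ratio by 0.15, and 0.13 with the total of clean reads, which raises them by 0.25. The unlabelled single-locus 21 nt loci had a median of 0.38 on the original scale, and the 24 nt loci with a homology label -0.09.

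The B-toxic to control ratio was higher in *C. sinensis* than in *C. grandis* for each of the 10 members in which the ratios differed between the species. For each locus the equality of the 2 ratios was tested on its reads in the 4 libraries with an exact conditional test. At an FDR below 0.01, 10 of 111 members passed, beside 13.3% of all 579 loci with reads in both species. All 10 members had a positive difference (log2 ratio in *C. sinensis* minus that in *C. grandis*), whereas among all loci that passed 46 were positive and 31 negative. In the most abundant of them, scaffold_8_1263994, the ratio was 1.13 in *C. sinensis* and 0.606 in *C. grandis*, a difference of 0.90 on the log2 scale (FDR 1.6e-63 by the exact conditional test). scaffold_6_1070318 had almost the same difference, 0.90 (FDR 6.3e-20 by the exact conditional test), from ratios of 1.79 and 0.956 in the same order of species. scaffold_2_309649 followed with 1.01 (FDR 6.4e-11 by the exact conditional test), from ratios of 1.84 and 0.916.

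The other 7 had larger FDR values, between 1.1e-04 and 0.0089 in the exact conditional test. scaffold_2_209091 differed by 1.40, with 263 and 196 RPM in B-toxic and control *C. sinensis* and 200 and 396 RPM in B-toxic and control *C. grandis*. scaffold_3_576569 had the largest difference of the 10, 1.65, with 185 and 110 RPM in B-toxic and control *C. sinensis* and 98.3 and 185 RPM in B-toxic and control *C. grandis*. scaffold_1_148272 differed by 1.60, with 210 and 104 RPM in B-toxic and control *C. sinensis* and 83 and 126 RPM in B-toxic and control *C. grandis*. In these 3, the B-toxic library was the higher one in *C. sinensis* and the lower one in *C. grandis*. scaffold_5_970164 differed by 1.23, with 201 and 107 RPM in B-toxic and control *C. sinensis* and 249 and 310 RPM in B-toxic and control *C. grandis*. scaffold_5_854927 differed by 1.06, scaffold_3_371908 by 0.88 and scaffold_2_259330 by 0.49. The last of these, at 1480 and 1206 RPM in B-toxic and control *C. sinensis* and 1460 and 1674 RPM in B-toxic and control *C. grandis*, passed neither single-species test.

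The number of members with a differing B effect rested on the scale used. With TMM factors 7 members passed, since scaffold_2_259330, scaffold_5_970164 and scaffold_1_148272 had FDR values of 0.0672, 0.0314 and 0.0147, and with DESeq2 size factors or the total of clean reads 4 passed: scaffold_8_1263994, scaffold_6_1070318, scaffold_2_309649 and scaffold_2_209091. All of these differences stayed positive, while over all loci the split moved to 30 positive and 32 negative with TMM factors and to 21 positive and 34 negative with either of the other scales. Each of the 10 had 100 or more reads over the 4 libraries, and 10 of 31 members of that depth (32.3%) compared with 32.6% of all loci of that depth. With the left-out loci added back, 15 loci passed. Of the 5 left-out loci among them, 4 had a positive difference and 1 a negative one.

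**Figure D2:**
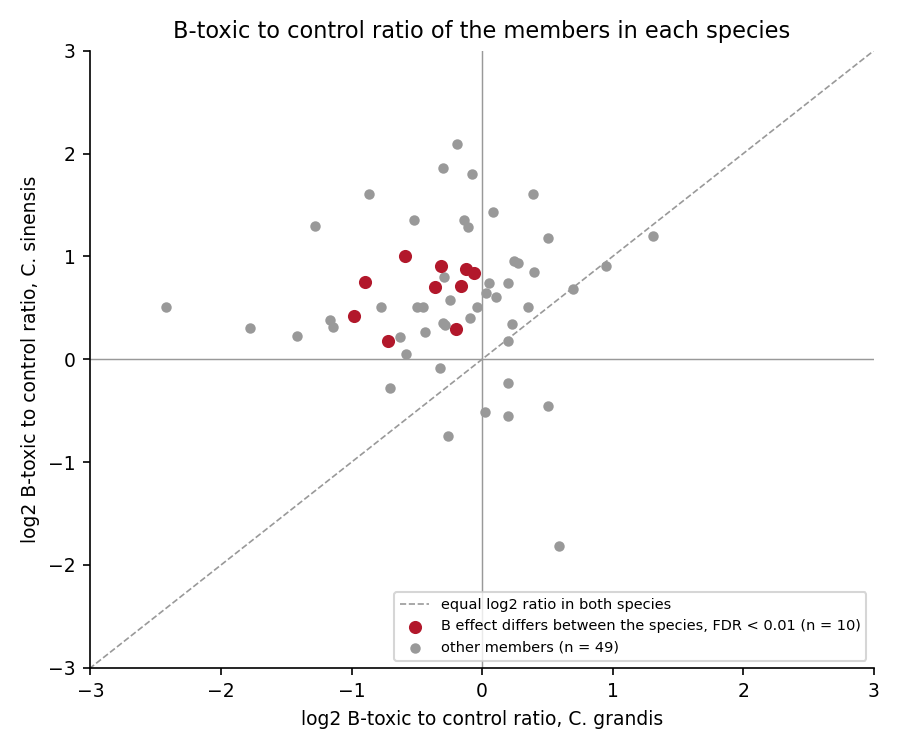
Log2 ratio of B-toxic to control reads (0.5 read added to each count) in *C. sinensis* (vertical axis) and *C. grandis* (horizontal axis) for the 59 members with 10 or more reads in the libraries of each species. The 10 members with a differing B effect are coloured, and 49 of the 59 members lie above the dashed line of equal ratios.

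A few members differed in level between the species. In 2 of them the ratios of summed RPM were 49.8 and 155 (exact lower limits 8.46 and 27.4), each against 1 read in *C. grandis*. The test was edgeR's quasi-likelihood test on all 4 libraries, with B treatment and species in the model and 1 residual degree of freedom, so both libraries of a species served as its replicates although each had another B supply. Of 58 members that passed edgeR's filter on low counts, 9 had an FDR below 0.05, 4 higher and 5 lower in *C. sinensis*, beside 35.8% of the 346 loci fitted. Of all loci that passed, 60 were higher and 64 lower in *C. sinensis*.

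Nearly all reads of 2 members came from *C. sinensis*. scaffold_6_995538 had 65 and 66 reads in B-toxic and control *C. sinensis*, and 1 and 0 reads in B-toxic and control *C. grandis*. Its summed RPM were 155 times those in *C. grandis* (95% exact interval 27.4 to 6180, FDR 2.1e-05 in edgeR). scaffold_7_1140884 had 13 and 29 reads in B-toxic and control *C. sinensis*, and 1 and 0 in B-toxic and control *C. grandis*, a summed ratio of 49.8 (8.46 to 2010, FDR 7.0e-05 in edgeR). scaffold_6_1096581 had 22 and 14 reads in B-toxic and control *C. sinensis*, against 3 and 5 in B-toxic and control *C. grandis*, a summed ratio of 5.33 (2.44 to 13.3, FDR 0.0014 in edgeR). The fourth was the most abundant member, scaffold_8_1263994, with a log2 fold change of 1.60 ± 0.42 (standard error, FDR 0.0076 in edgeR) and a summed ratio of 2.19 (2.11 to 2.27). Summed ratios used totals of mature reads, without the TMM factors that edgeR used, so the 2 measures are on different scales. The *C. sinensis* and *C. grandis* libraries of scaffold_8_1263994 did not overlap, which adds no support because it was chosen for its species difference.

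The 5 members lower in *C. sinensis* were led by scaffold_3_511377. It had 5 and 0 reads in B-toxic and control *C. sinensis*, against 47 and 84 in B-toxic and control *C. grandis*, and its summed RPM were 22.1 times higher in *C. grandis* (9.23 to 69.2, FDR 0.0022 in edgeR). scaffold_4_622213 had 49.3 and 37.5 RPM in B-toxic and control *C. sinensis*, against 246 and 262 RPM in B-toxic and control *C. grandis*, a log2 fold change of -2.17 ± 0.60 (FDR 0.010 in edgeR). scaffold_1_159944 was at 8.22 and 8.66 RPM in B-toxic and control *C. sinensis* and at 46.1 and 53.5 RPM in B-toxic and control *C. grandis* (log2 fold change -2.12 ± 0.56, FDR 0.0076 in edgeR). This rested on 5 reads in all in *C. sinensis* and 35 in *C. grandis*. scaffold_1_23135, at 28.8 and 14.4 RPM in B-toxic and control *C. sinensis* and 101 and 85.6 RPM in B-toxic and control *C. grandis*, had a log2 fold change of -1.77 ± 0.55 (FDR 0.019 in edgeR), from 12 and 65 reads in all in *C. sinensis* and *C. grandis*. scaffold_42_1548435, at 24.7 and 5.77 RPM in B-toxic and control *C. sinensis* and 70.7 and 42.8 RPM in B-toxic and control *C. grandis*, had one of -1.63 ± 0.56 (FDR 0.031 in edgeR), from 8 and 39 reads in all in *C. sinensis* and *C. grandis*. The 2 species did not overlap in any of these 5 loci, but the loci were chosen for a species difference, so this adds no support. The share of all loci without overlap was not counted. scaffold_1_159944, scaffold_1_23135 and scaffold_42_1548435 lost the call in DESeq2 (FDR 0.51, 0.405 and 0.628 in this order) and with single libraries left out. scaffold_1_159944 lost it without any 1 of the 4 libraries (FDR 0.0676 to 0.181), scaffold_1_23135 without B-toxic *C. grandis* (0.0676) or control *C. sinensis* (0.234), and scaffold_42_1548435 without B-toxic *C. grandis* (0.369), control *C. grandis* (0.0723) or control *C. sinensis* (0.55). Of the members higher in *C. sinensis*, scaffold_8_1263994 lost the call without B-toxic *C. grandis* (log2 fold change 1.24). scaffold_6_1096581 lost it without B-toxic *C. sinensis* (log2 fold change 2.15) and in DESeq2 (FDR 0.122). Without control *C. sinensis*, scaffold_7_1140884 fell below the filter on low counts and was not fitted.

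A further 4 members were below the filter and had no read at all in 1 species. scaffold_6_1007978 had 14 and 4 reads in B-toxic and control *C. grandis* and 0 in both *C. sinensis* libraries. Its summed RPM were 5.06-fold higher in *C. grandis* when 3 reads over the 2 libraries are taken as the limit (exact lower limit 3.71). scaffold_8_1328728 had 8 and 10 reads in B-toxic and control *C. grandis* (5.06-fold in the same way, exact lower limit 3.71). scaffold_5_780795 had 9 and 7 (4.5-fold, exact lower limit 3.25). In the other direction scaffold_2_233183 had 9 and 8 reads in B-toxic and control *C. sinensis* and 0 in both *C. grandis* libraries. Its summed RPM were 6.72-fold higher in *C. sinensis* in the same way (exact lower limit 4.89).

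The median log2 fold change of the 58 fitted members between the species was 0.06, close to the 0.02 of all 346 loci, and its sign was not stable. Without TMM it was -0.33, since TMM raised every *C. sinensis* to *C. grandis* ratio by 0.39, and without B-toxic *C. sinensis* it was -0.43. The split of the calls moved too: 4 higher and 12 lower without TMM, 4 higher and 17 lower with the total of clean reads, and 6 higher and 4 lower with DESeq2 size factors. The same splits over all loci were 45 higher and 84 lower, 40 higher and 103 lower, and 65 higher and 61 lower. Without control *C. grandis* the median log2 fold change of the members was 0.28.

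**Figure D3:**
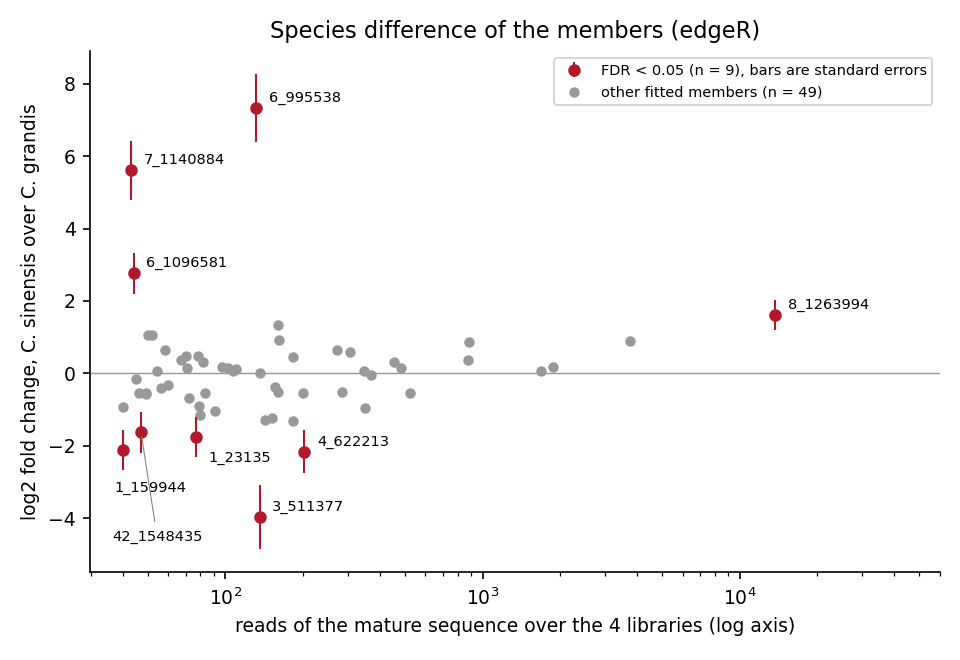
Log2 fold change of *C. sinensis* over *C. grandis* from edgeR against the reads of each of the 58 fitted members (log axis). The 9 members at an FDR below 0.05 are coloured and carry their standard error, and they run from -3.97 for scaffold_3_511377 to 7.32 for scaffold_6_995538.

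No member passed the test for a B effect shared by the species. In the same edgeR fit 0 of 58 members and 0% of the 346 loci had an FDR below 0.05 for B treatment. At an unadjusted p below 0.05 edgeR gave 1 member of 58 and 9 of all loci, and DESeq2 gave 0 members.

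The 5′ base of the members was A in 64 of 128 loci, or 50% (95% exact interval 41.0 to 59.0), U in 37, G in 19 and C in 8. A was also the most frequent first base of the unlabelled 24 nt loci listed more than once (61.5% of 39, 44.6 to 76.6) and of the 24 nt loci with a homology label (52.2% of 178, 44.6 to 59.8). The unlabelled single-locus 21 nt loci started with A in 18.5% of 54 (9.25 to 31.4) and with U in 50%. The intervals of the members and of the 21 nt loci did not overlap. Of the 10 members with a differing B effect, 7 started with A. Weighted by reads, A-starting members held 80.3% of the members' reads in B-toxic *C. sinensis*, 82.5% in control *C. sinensis*, 63.9% in B-toxic *C. grandis* and 69.1% in its control, a share set largely by scaffold_8_1263994, which starts with A. Without it the shares were 60.1%, 58.2%, 50.2% and 51.7% for these libraries.

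**Figure D4:**
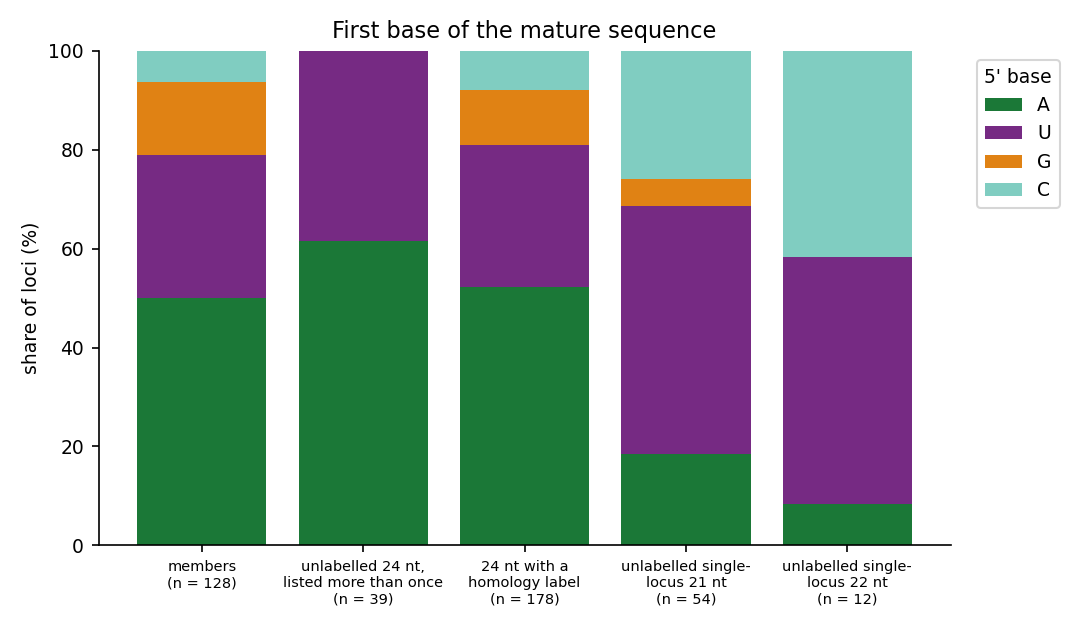
Share of loci (percent) by the first base of the mature sequence, for the 128 members and 4 other classes of the catalogue. A makes up 50% of the members and 18.5% of the unlabelled single-locus 21 nt loci.

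The label of these loci as miRNAs was checked against their predicted folding. The deposited precursors of 108 to 115 nt were folded with RNAfold, and a mature sequence was taken to lie in a hairpin arm where all its paired bases paired to one side of it and at most 4 of its 24 bases were unpaired. This held for 32 of 128 members, 25% (95% exact interval 17.8 to 33.4). It held for 61.5% (44.6 to 76.6) of the unlabelled 24 nt loci listed more than once, 29.2% (22.7 to 36.5) of the 24 nt loci with a homology label, 61.1% (46.9 to 74.1) of the unlabelled single-locus 21 nt loci and 39.9% of all loci. The interval of the members did not overlap that of the 21 nt loci. The limit of 4 unpaired bases was the same at every length, so a shorter sequence needed fewer paired bases to pass. The multiply listed 24 nt loci hold the same mature sequences at several loci and are not independent. Their interval is therefore too narrow to be set against that of the members. Of the 10 most abundant members 4 passed, and of the 10 with a differing B effect 2 passed.

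The folding of a strong and a weak hairpin can be compared in the precursors of 2 abundant members, with the mature sequence in capitals.
scaffold_8_1263994: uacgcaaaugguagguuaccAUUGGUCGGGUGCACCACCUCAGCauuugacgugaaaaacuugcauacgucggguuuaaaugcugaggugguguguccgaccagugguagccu
scaffold_2_309649: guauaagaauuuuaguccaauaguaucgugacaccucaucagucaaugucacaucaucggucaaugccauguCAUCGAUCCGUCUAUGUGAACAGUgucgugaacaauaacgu

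In scaffold_8_1263994 all 24 mature bases were paired to the bases after them, and the folding energy was -0.61 kcal/mol per base. In scaffold_2_309649 18 of the 24 were paired, and the energy was -0.18 kcal/mol per base. Over all members the median energy was -0.25 kcal/mol per base, and it ran from -0.62 in scaffold_4_622213 to -0.11 in scaffold_3_432598. Members that passed the arm check had a median of 20 reads and those that did not 27. A first base of A was present in 56.2% of the 32 that passed and in 47.9% of the 96 that did not.

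**Figure D5:**
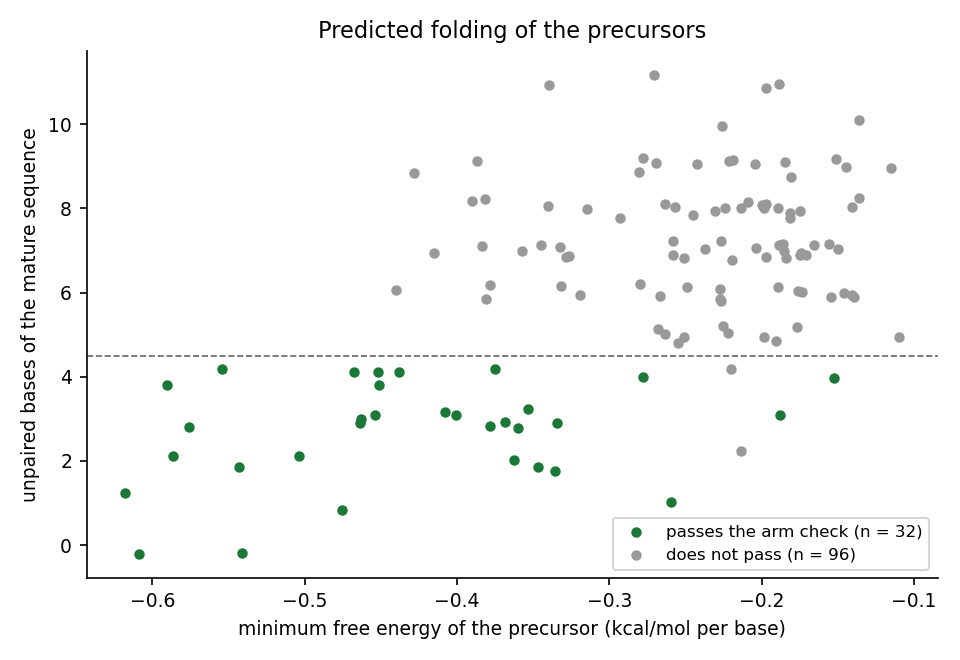
Unpaired bases of the mature sequence (vertical axis, points spread slightly for visibility) against the predicted folding energy of the precursor in kcal/mol per base for the 128 members. The 32 that passed the arm check lie below the dashed line, as do 2 whose mature bases did not all pair to one side.

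Most reads on the precursors were of the mature sequence itself. Its share of all precursor reads, summed over the 4 libraries, had a median of 91.7% over the members, against 95.8% over all loci, and reached 75% in 91 of 128 members. It was 97.2% in scaffold_8_1263994 and 98.8% in scaffold_6_1070318. The lowest share among members with at least 100 reads, 41.5%, was that of scaffold_1_19129 (160 of 386 reads), and the highest, 100%, was shared by scaffold_4_622213 (203 reads) and scaffold_3_565768 (107 reads). In 13 members the mature sequence had under 50% of the precursor's reads. The mature sequence began at base 21 of the precursor in 20 members and at base 71 in 17.

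Few members resembled each other in sequence. They had 124 distinct seeds, 4 of which occurred in 2 members each, and no member shared its seed with a labelled locus. Close matches to labelled loci still occurred. scaffold_3_371908 aligned over 23 bases, with 1 substitution, with a locus labelled sbi-miR6226-3p. scaffold_3_565768, scaffold_3_503900 and scaffold_1473_1560582 aligned with gma-miR5767, mtr-miR2622 and bdi-miR7708a-5p loci, with 2 substitutions each. scaffold_6_995538 aligned over 21 bases, with 2 substitutions, with an unlabelled locus read in all 4 libraries. Pairs of members that differed by at most 2 bases, or that overlapped at an offset, are shown here with the first named locus as the starting sequence of each change, counted from 1 at its 5′ end.
scaffold_2_259330: gAAGAACUuuguugauaaggcgug
scaffold_2_272434: aGAAGAACuuuguugauaaggcgu
scaffold_2_241888: uUUGUCAAcuuaggauauacgagu
scaffold_1_19129: uUUGUCAAcuuaggguauacgagu
scaffold_6_1003562: aAAGGAUUcucuaggagaacgugu
scaffold_3_424754: aAAGGAUUuucuagaagaacgugu
scaffold_1_96872: gUGCCGUGcuguacgaacaugugc
scaffold_7_1136114: gUGCCGUGccguacggacaugugc
scaffold_3_457812: aCGGUUCGguucgguucgguucgg
scaffold_3_386086: cGGUUCGGuucgguucgguucggu

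scaffold_2_259330 and scaffold_2_272434 shared 23 bases at an offset of 1 base. The first had 1879 reads and the second 482. Their ratios in *C. sinensis* were 1.23 (1.06 to 1.42) and 0.938 (0.697 to 1.26). Both were below 1 in *C. grandis*, at 0.872 and 0.798. scaffold_2_241888 and scaffold_1_19129 differed by A15G and had 98.7 and 201 RPM in B-toxic *C. sinensis*, 77.9 and 141 RPM in control *C. sinensis*, 163 and 73.7 RPM in B-toxic *C. grandis*, and 139 and 102 RPM in control *C. grandis*. Thus scaffold_1_19129 was the higher one of this pair in *C. sinensis* and the lower one in *C. grandis*, without passing the species test itself (FDR 0.093 in edgeR). scaffold_6_1003562 and scaffold_3_424754 differed by C9U and G15A. In B-toxic *C. grandis* they had 15 and 3 reads, against 25 and 21 in control *C. grandis*, ratios of 0.689 (0.338 to 1.36) and 0.164 (0.0313 to 0.55). The difference between these 2 ratios was not tested. The pair of scaffold_1_96872 and scaffold_7_1136114 differed by U10C and A16G and had 17 and 15 reads in all. The last pair, scaffold_3_457812 and scaffold_3_386086, with 17 and 14 reads, is a tandem repeat of 5 bases read at an offset of 1 base. Reads of such pairs can be assigned to one or the other locus by a single base.

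Precursors of several members shared at least 25 bases with those of other loci, so these members are not independent of them. The precursor of scaffold_2_184151 had 63 bases in common with that of a 21 nt locus labelled ath-miR393a, and that of scaffold_3_563840 had 66 in common with an unlabelled 22 nt locus. The whole mature sequence of scaffold_8_1243192 lay in the precursor of a 21 nt locus labelled ath-miR5014b, and that of scaffold_3_565768 lay in the precursor of a left-out locus and, as its reverse complement, in that of another.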

How the data were processed

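The authors deposited, for 699 precursor loci, an unnormalized count of mature-sequence reads per library (4 libraries) and a pooled count over the whole precursor. Before that they discarded low-quality reads and reads of rRNA, tRNA and the like, compared the rest with miRBase 21 and used MTide to find precursors on the *C. clementina* genome (version 1.0). No source used here states how reads with several matching loci were assigned. No genome was used here, so loci were not placed on one.

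Members, lists and the named loci were chosen with earlier results of these data known. The named members are the 10 with most reads, all called within a species (FDR below 0.01, 2-fold or more), up to 5 in each direction between the species with at least 20 reads, up to 10 with a differing B effect, those with no read in 1 species and at least 10 in the other, close sequence pairs, and the extremes of mature share and folding energy among those with at least 100 reads. scaffold_3_516511 was chosen after its values were seen.

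RPM were reads per 1000000 of the library's mature reads summed over all loci (243277 to 373890). Fisher's exact test and the exact conditional test were run in Python 3.11.15 with SciPy 1.17.1 over all loci with reads, and log2 ratios in medians used a pseudocount of 0.5 read. edgeR 4.0.16 (TMM, quasi-likelihood test) and DESeq2 1.42.0 were run in R 4.3.3. RNAfold 2.7.2 folded the precursors at 37 °C. Tests were checked on simulated data. Alternatives were other scalings, filters and thresholds, edgeR's exact test at a coefficient of variation set to 0.2 or 0.4, DESeq2, the centroid structure, and each library left out. PCR copies cannot be told apart, so intervals (95%, Clopper-Pearson) and limits from 3 reads cover counting error only.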

Additional observations from a re-analysis of the deposited data

Results flagged for a closer look

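In 10 members the B-toxic to control ratio differed between *C. sinensis* and *C. grandis* at an FDR below 0.01 in the exact conditional test on the reads of the 4 libraries. The log2 difference, *C. sinensis* minus *C. grandis*, was 0.903 in scaffold_8_1263994, 0.904 in scaffold_6_1070318, 0.493 in scaffold_2_259330, 1.01 in scaffold_2_309649, 0.879 in scaffold_3_371908, 1.06 in scaffold_5_854927, 1.40 in scaffold_2_209091, 1.23 in scaffold_5_970164, 1.65 in scaffold_3_576569 and 1.60 in scaffold_1_148272. All 10 were positive, as were 4 of the 5 left-out loci that passed. The test covers counting error only, because each condition had 1 library.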

How the results depend on the processing

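Each condition had 1 library, so spread between plants was not measured, and few members had the depth to show a change of less than 2-fold. Without the ratio limit, 0 of 106 members with fewer than 100 reads in the *C. sinensis* libraries passed, beside 0.394% of all 508 loci of that depth. No paired analysis was possible because the groups compared share fewer than 2 replicate numbers, apart from the edgeR test of B treatment with species in the model, in which 0 members passed. Of 82 alternative values for the main results 50 stayed within the limits set for a stable value, and no result for a single called member changed direction in 177 further alternatives, while 42 of these lost the call. The cause was not tested for any of the changes below.

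The count of members called in *C. sinensis* (0) became 6 with no limit on the ratio, 4 at an FDR below 0.05, 2 where loci needed at least 10 reads and 2 with the left-out loci. The count in *C. grandis* (3) became 1 with DESeq2 size factors or clean reads, 6 with no limit on the ratio, 0 with edgeR's exact test at either coefficient of variation and 7 with the left-out loci. The median log2 ratio in *C. sinensis* (0.51) became 0.36 with TMM and 0.35 with DESeq2 size factors, and that in *C. grandis* (-0.13) became 0.020 with DESeq2 size factors and 0.13 with clean reads. The summed log2 ratio, tried after seeing the data, became 0.23 with TMM, 0.22 with DESeq2 size factors, 0.32 with clean reads and 0.62 without scaffold_8_1263994 in *C. sinensis* (0.38), and -0.19 with DESeq2 size factors, -0.086 with clean reads and -0.16 without scaffold_8_1263994 in *C. grandis* (-0.34). Members with a differing B effect (10) became 4 with DESeq2 size factors or clean reads. Members called between the species (9) became 16 without TMM, 21 with clean reads, 16 with no filter, 5 with DESeq2 and 15 with the left-out loci, and ran from 7 to 17 with 1 library left out. Their median log2 fold change (0.06) became -0.59 with clean reads and ran from -0.43 to 0.28 with 1 library left out. The share of members starting with A (50%) became 73.9% weighted by reads.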
